A study of Homo sapiens with 6 samples.

Results

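The genes described here encode 10 regulators of the hematopoietic transcription factor MYB: the acetyltransferases CREBBP, EP300, KAT6A and KAT6B, the kinases HIPK1, HIPK2 and NLK, the ubiquitin ligase subunit FBXW7, the SUMO ligase TRAF7 and the MLL cofactor MEN1. They were chosen by symbol for what their proteins are known to do to MYB or at its target genes. The choice was made with earlier results of these data known. The Ensembl IDs of these genes picked 10 of the 58288 rows of the deposited expression values. All 10 had a mean of at least 1 FPKM (fragments scaled to transcript length and library total) and were among the 12634 genes tested.

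K562 cells, an erythroleukemic line of human origin, were used as single cell clones kept in 200 µg/ml G418 and stably expressing MYB with a 3xFLAG tag and an HA tag. In the 2KR-MYB rescue the lysines that accept SUMO are mutated to arginine, so that MYB cannot be SUMO conjugated, and in the ANAA-MYB rescue the motif with which MYB binds SUMO is mutated. Every library came from cells transfected 24 h earlier with the siRNA si2992, which silences endogenous MYB but not the constructs. The 3 replicates of each rescue, described as biological replicates, all came from a single clone, so the mutant and the clone cannot be told apart, and p-values measure the spread between cultures of a clone. Control cells, knockdown cells and cells rescued with WT-MYB were not analysed here, so no value says whether a gene was rescued.

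MYB activates transcription through a transactivation domain that docks on the related acetyltransferases CBP (CREBBP) and p300 (EP300), which acetylate both histones and MYB itself. A C-terminal regulatory region restrains it: SUMO is conjugated there, and phosphorylation by HIPK2 and NLK marks MYB for ubiquitination by the SCF complex, in which FBXW7 recognizes the substrate. Menin (MEN1) links MYB to the MLL histone methyltransferases. In blood cells these factors act on the stem cell and progenitor programs that MYB keeps active, and CREBBP, EP300 and KAT6A are partners in leukemia fusion genes.

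Between the mutants, 3 of the 10 regulators differed: KAT6A, HIPK2 and TRAF7, all lower with 2KR-MYB. KAT6A stood there at 0.715 times its ANAA-MYB mean, HIPK2 at 0.744 times and TRAF7 at 0.828 times. CREBBP and EP300, the acetyltransferases that bind MYB directly, did not pass the threshold, nor did KAT6B, HIPK1, NLK, FBXW7 and MEN1. Genes were compared on log2(FPKM + 1) by limma as 2KR-MYB minus ANAA-MYB, with a Benjamini-Hochberg adjusted p under 0.01 over all tested genes as the threshold. By this rule 13.0% of all tested genes passed, of which the part higher with 2KR-MYB made up 5.57% of tested genes and the part higher with ANAA-MYB 7.42%. At an adjusted p under 0.05 the regulators that passed were again 3, against 26.9% of all tested genes. The split over all tested genes depended on the scaling: 2KR-MYB was the higher side in 42.9% of calls as deposited and in 54.5% once upper quartiles were equalized. The median log2 fold change was 0.0049 for the 10 regulators and -0.015 for all tested genes, both close to 0. Libraries of the rescues did not overlap in 7 of the 10 regulators, and in 44.9% of all tested genes. For single genes, the exact permutation test of 3 libraries against 3 reaches no two-sided p under 0.1.

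**Figure D1:**
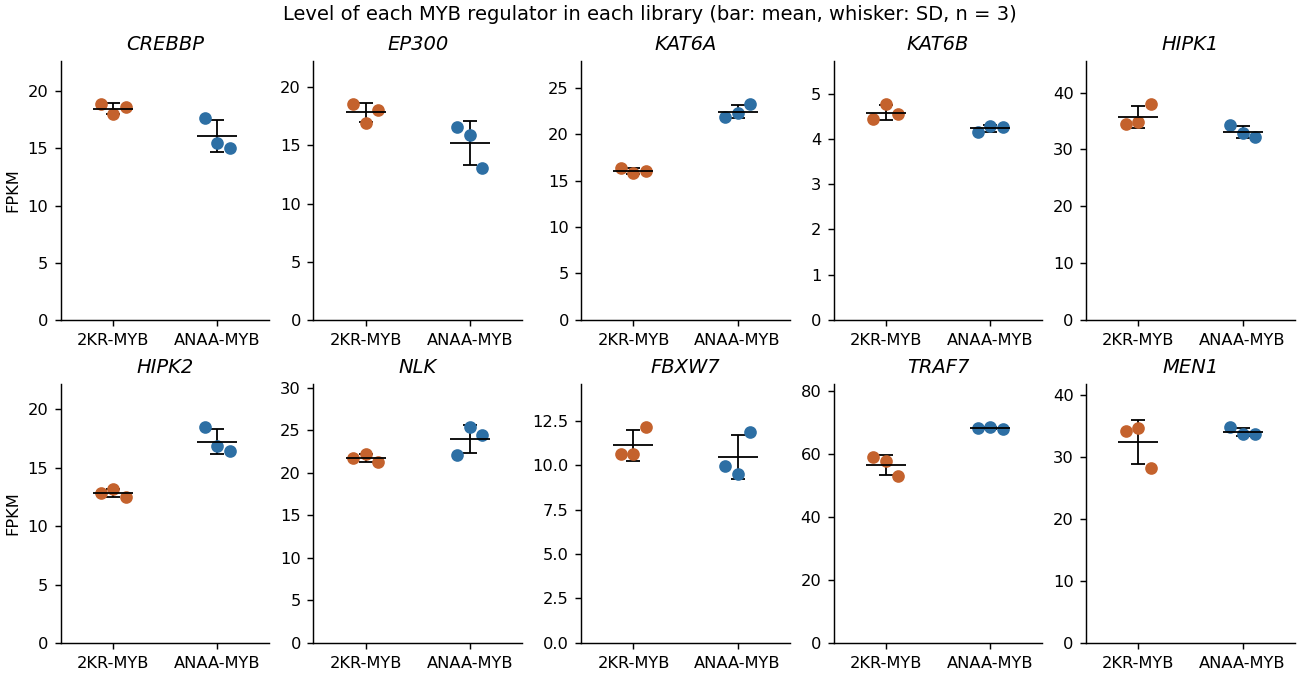
FPKM of each of the 10 regulators in the 3 libraries of the 2KR-MYB rescue (orange) and the 3 of the ANAA-MYB rescue (blue), each vertical axis starting at 0; horizontal bars are means and whiskers are SD. KAT6A, HIPK2 and TRAF7 lie lower in all 3 libraries of the 2KR-MYB rescue, while the libraries of NLK, FBXW7 and MEN1 overlap.

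The libraries carried the markers of K562. All 9 genes of a list of erythroid markers, among them HBG1, HBG2, HBZ, HBE1, TFRC, GATA1, KLF1 and EPOR, were tested, and their summed level ran from 1743 to 1868 FPKM with 2KR-MYB and from 1974 to 2375 FPKM with ANAA-MYB. Of these, GATA1, KLF1 and TFRC passed as higher with ANAA-MYB. Of 8 markers of other blood cells, CD3D and LYZ were among those with a mean of at least 1 FPKM, MS4A1 was listed at 0 in all libraries, and CD3E, CD14 and CSF1R stayed at or below 0.531 FPKM. The sum over these 8 ran from 37.9 to 43.6 FPKM with 2KR-MYB and from 64.6 to 89.5 FPKM with ANAA-MYB, with CD3D and LYZ past the threshold as higher with ANAA-MYB. The part of these differences in the results below was not tested, and a change in the mix of cells cannot be told apart from a change per cell. MYB itself, whose value includes the transcript of the construct, did not pass (log2 fold change 0.21, 95% interval 0.046 to 0.37, limma adjusted p = 0.062). The total FPKM of a library was between 579920 and 633662, and its depth is unknown.

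CREBBP and EP300 were expressed at nearly equal levels. CREBBP (ENSG00000005339, GRCh38 chromosome 16, 3725054 to 3880713) measured 18.9, 18.0 and 18.6 FPKM with 2KR-MYB and 17.7, 15.5 and 15.1 FPKM with ANAA-MYB. The groups lay apart with 2KR-MYB higher, though the first ANAA-MYB library (17.7) came close to the second 2KR-MYB library (18.0). The log2 fold change was 0.19 (95% interval 0.037 to 0.35, limma adjusted p = 0.068), short of the threshold. EP300 (ENSG00000100393, chromosome 22, 41092592 to 41180077) had 18.5, 16.9 and 18.1 FPKM with 2KR-MYB and 16.6, 15.9 and 13.0 FPKM with ANAA-MYB. Here too the libraries did not overlap, with the last ANAA-MYB library well below the others. The fitted difference on the log2 scale was 0.23 (95% interval 0.022 to 0.43, limma adjusted p = 0.095), and 0.13 without that last library.

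KAT6A (MOZ) and KAT6B (MORF) are paralogous acetyltransferases of histone H3 that share their scaffold and reader subunits. KAT6A (ENSG00000083168, chromosome 8, 41929479 to 42051987) measured 16.3, 15.8 and 16.0 FPKM with 2KR-MYB against 21.8, 22.2 and 23.2 FPKM with ANAA-MYB. The gap between the rescues was several times the spread within either. On the log2 scale the difference was -0.46 ± 0.050 (standard error; limma adjusted p = 0.00053), larger in size than that of 90.1% of all tested genes. KAT6B (ENSG00000156650, chromosome 10, 74824936 to 75032624), the least expressed of the 10, had 4.44, 4.77 and 4.54 FPKM with 2KR-MYB and 4.15, 4.29 and 4.26 FPKM with ANAA-MYB. Its libraries lay apart by a small margin in the opposite direction. The log2 fold change was 0.092 (95% interval -0.065 to 0.25, limma adjusted p = 0.35).

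HIPK1 and HIPK2 are nuclear serine/threonine kinases, and HIPK2 acts with NLK, a kinase downstream of TAK1, in the phosphorylation of MYB. HIPK1 (ENSG00000163349, chromosome 1, 113929324 to 113977869) had 34.4, 34.9 and 38.0 FPKM with 2KR-MYB and 34.3, 32.9 and 32.2 FPKM with ANAA-MYB. The lowest 2KR-MYB library was just above the highest ANAA-MYB library, and the log2 fold change was 0.11 (95% interval -0.018 to 0.23, limma adjusted p = 0.18), which fell to 0.064 without 2KR-MYB replicate 3. HIPK2 (ENSG00000064393, chromosome 7, 139561570 to 139777998) ranged through 12.9, 13.2 and 12.5 FPKM with 2KR-MYB and 18.5, 16.9 and 16.4 FPKM with ANAA-MYB. Every library with ANAA-MYB was higher by more than the range of the 2KR-MYB libraries. The difference was -0.40 ± 0.061 on the log2 scale (standard error; limma adjusted p = 0.0026), larger in size than that of 87.2% of all tested genes. It missed the threshold without 2KR-MYB replicate 1 (adjusted p = 0.011) and with no filter on low values (0.010). NLK (ENSG00000087095, chromosome 17, 28042677 to 28206074) had 21.7, 22.2 and 21.3 FPKM with 2KR-MYB and 22.1, 25.3 and 24.4 FPKM with ANAA-MYB. The first ANAA-MYB library lay inside the range of the 2KR-MYB libraries. The log2 fold change was -0.13 (95% interval -0.27 to 0.0041, limma adjusted p = 0.14).

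Of the genes for ligases that act on MYB, TRAF7 differed and FBXW7 did not pass. TRAF7 (ENSG00000131653, chromosome 16, 2155782 to 2178129), a RING protein that can stimulate SUMO conjugation of MYB, was the most highly expressed of the 10. It had 59.0, 57.8 and 52.9 FPKM with 2KR-MYB and 68.4, 68.4 and 68.0 FPKM with ANAA-MYB. The ANAA-MYB libraries were almost identical, and the last 2KR-MYB library was the lowest. The difference was -0.27 ± 0.052 on the log2 scale (standard error; limma adjusted p = 0.0070), and this call was the least stable: it was lost in 11 of 15 alternatives, among them the omission of any of the 6 libraries, where the adjusted p was between 0.013 and 0.026, and the replicate block, where it was 0.013. The last 950 bases of TRAF7 overlap CASKIN1, which stood at 2.05 to 3.40 FPKM over the 6 libraries and was itself lower with 2KR-MYB (log2 fold change -0.47, limma adjusted p = 0.0040), so that reads in the overlap cannot be told apart if they were counted without strand. FBXW7 (ENSG00000109670, chromosome 4, 152320544 to 152536092) had 10.6, 10.6 and 12.1 FPKM with 2KR-MYB and 9.95, 9.52 and 11.9 FPKM with ANAA-MYB. In both the last library was the highest, and the groups overlapped. The log2 fold change was 0.086 (95% interval -0.12 to 0.29, limma adjusted p = 0.52), and it moved to 0.027 without 2KR-MYB replicate 3, 0.057 without ANAA-MYB replicate 1, 0.028 without ANAA-MYB replicate 2 and 0.17 without ANAA-MYB replicate 3.

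The bases before the start of TRAF7 are shown since, of the regulators that differed, it had an entry among the RefSeq promoters. The strand read is the plus strand of GRCh38.p14, chr16:2155532-2155781, the 250 bases that end at the base before the start, and capitals mark the match to a MYB-type motif.
TRAF7: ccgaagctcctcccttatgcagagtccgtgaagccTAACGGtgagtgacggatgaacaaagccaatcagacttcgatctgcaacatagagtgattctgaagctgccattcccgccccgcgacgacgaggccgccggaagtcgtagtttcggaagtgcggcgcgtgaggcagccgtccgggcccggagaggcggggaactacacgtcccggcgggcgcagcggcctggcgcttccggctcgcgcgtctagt
The motif was searched as TAACGG or TAACTG or CAACGG or CAACTG on both strands, and no window position can match more than a single form. TAACGG began 215 bases before the TRAF7 start. Among 35116 RefSeq windows of this length 21.1% held a match. Of the 10 regulators 7 had an entry, and 3 of these held a match in at least 1 of their windows (KAT6B, HIPK1 and TRAF7), while 24.9% of all genes with an entry did. A match describes the letters and does not show binding.

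MEN1 (ENSG00000133895, chromosome 11, 64803516 to 64811294), the scaffold that tethers MLL to chromatin, had 34.2, 34.7 and 28.3 FPKM with 2KR-MYB and 34.8, 33.7 and 33.7 FPKM with ANAA-MYB. The last 2KR-MYB library was low and the others lay within the ANAA-MYB range. The log2 fold change of -0.076 (95% interval -0.25 to 0.10, limma adjusted p = 0.50) turned to 0.015 without that library, and became -0.12 without 2KR-MYB replicate 1 and -0.13 without 2KR-MYB replicate 2.

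**Figure D2:**
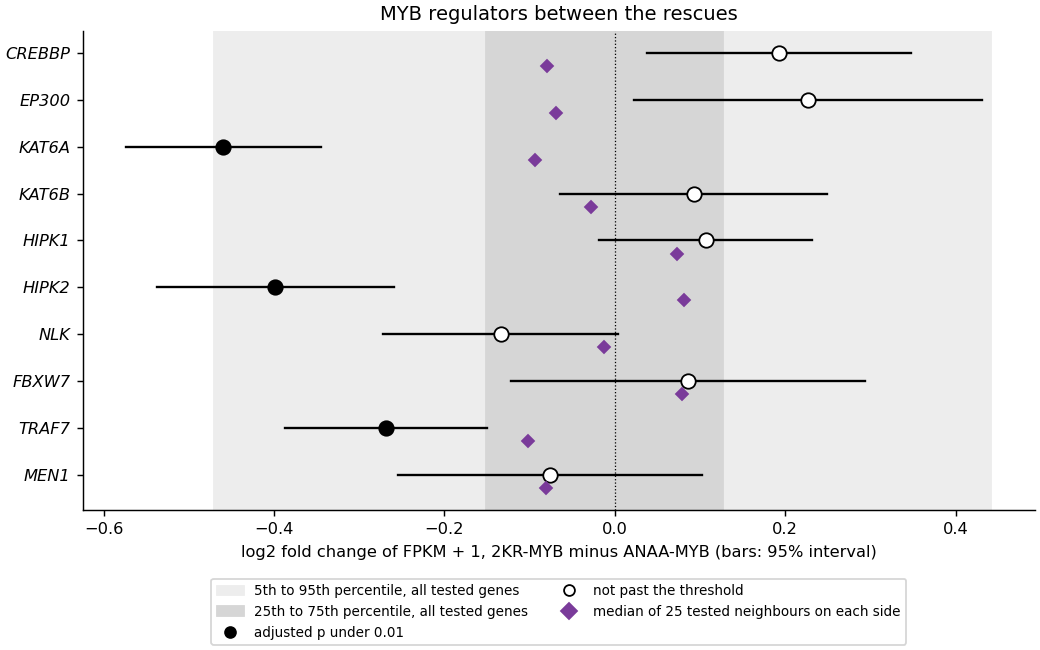
Log2 fold change (2KR-MYB minus ANAA-MYB, on FPKM + 1) of each regulator with its 95% interval, filled where the limma adjusted p was under 0.01; grey bands span the middle of all tested genes and diamonds give the median of 25 tested neighbours on each side on the chromosome. The points of KAT6A (-0.46) and HIPK2 (-0.40) lie near the 5th percentile of all tested genes (-0.47), and the diamond of HIPK2 (0.082) lies on the other side of 0.

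Since FPKM is per length, the regulators could be ordered by level. In both rescues TRAF7 was highest, with means of 56.6 ± 3.22 (2KR-MYB) and 68.3 ± 0.237 FPKM (ANAA-MYB; SD, n = 3 each). HIPK1 and MEN1 came next and overlapped each other in either rescue, followed by NLK. FBXW7 and KAT6B were lowest in both. In the 2KR-MYB rescue CREBBP (18.5 ± 0.453 FPKM) and EP300 (17.8 ± 0.843 FPKM) overlapped each other and stood above KAT6A (16.0 ± 0.281 FPKM) and HIPK2 (12.8 ± 0.366 FPKM, SD, n = 3 each). In the ANAA-MYB rescue KAT6A (22.4 ± 0.710 FPKM) overlapped NLK and stood above HIPK2 (17.3 ± 1.08 FPKM), which overlapped CREBBP (16.1 ± 1.40 FPKM, SD, n = 3 each).

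Ratios of related genes within a library do not depend on the scaling between libraries. The ratio of CREBBP to EP300 was 1.04 in the 2KR-MYB rescue and 1.06 in the ANAA-MYB rescue (geometric means), a difference of -0.037 on the log2 scale (exact two-sided permutation test, p = 0.7). The level of either acetyltransferase was thus close to that of the other. The level of KAT6A was 3.68, 3.31 and 3.52 times that of KAT6B in the libraries with 2KR-MYB and 5.26, 5.17 and 5.44 times in those with ANAA-MYB. The level of HIPK1 was 2.68, 2.64 and 3.05 times that of HIPK2 with 2KR-MYB and 1.86, 1.95 and 1.96 times with ANAA-MYB. On the log2 scale these ratios differed by -0.60 and 0.54, and in both the 3 libraries of a rescue lay wholly apart from those of the other (p = 0.1 by the same exact test, its minimum; 0.15 after Benjamini-Hochberg adjustment over 3 ratios). The summed level of HIPK1 and HIPK2 was 47.3 to 50.4 FPKM with 2KR-MYB and 48.6 to 52.7 FPKM with ANAA-MYB, which overlapped. The sum of KAT6A and KAT6B did not overlap, at 20.5 to 20.8 FPKM with 2KR-MYB and 26.0 to 27.5 FPKM with ANAA-MYB, and neither did that of CREBBP and EP300, at 34.9 to 37.4 FPKM and 28.1 to 34.3 FPKM.

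**Figure D3:**
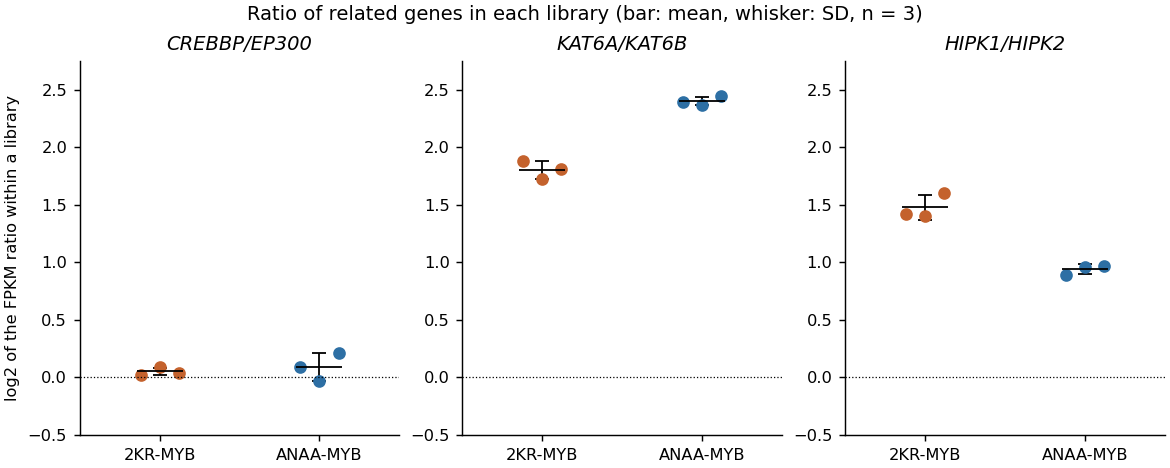
Log2 of the FPKM ratio of 3 pairs of related genes within each library of the 2KR-MYB rescue (orange) and the ANAA-MYB rescue (blue); bars are means and whiskers SD. CREBBP/EP300 stays near 0 in both, while KAT6A/KAT6B is lower and HIPK1/HIPK2 higher in every library with 2KR-MYB.

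As each rescue was a single clone, every regulator was set beside the 25 nearest tested genes on each side of it on its chromosome. The 50 neighbours of KAT6A, from PPP2CB to MRPL15, centred on a median of -0.093 on the log2 scale. Of these 50, 12 passed the threshold as higher with ANAA-MYB and 6 as higher with 2KR-MYB. The shares over all tested genes were 7.42% and 5.57%. KAT6A lay below all but 4 of its neighbours. The 3 tested genes before it, picked after their values were seen, were lower with 2KR-MYB as well: ANK1, the erythrocyte ankyrin, by a log2 fold change of -0.56, GPAT4 by -0.76 and GINS4 by -0.92 (limma adjusted p of 0.00032, 5.5e-05 and 0.00071). The gene after it, AP3M2, gave -0.18 (limma adjusted p = 0.092). The part of a shift of this region in the KAT6A value was not tested. The value of HIPK2 had the opposite sign to the median of its surroundings: its 50 neighbours, from CEP41 to PDIA4, centred on a median of 0.082, 10 passed as higher with 2KR-MYB and 2 as higher with ANAA-MYB, and 2 of the 50 lay below HIPK2. Of these 2, CLEC2L is the gene next to it (log2 fold change -1.435), at 0.045 to 0.198 FPKM with 2KR-MYB and 1.92 to 2.12 FPKM with ANAA-MYB. The neighbours of TRAF7, from CRAMP1 to FLYWCH1, had a median of -0.10, and 13 of 50 lay below TRAF7. Of the same 50, 5 passed as higher with ANAA-MYB and 1 as higher with 2KR-MYB. Among the regulators that did not pass, CREBBP and EP300 lay above 48 and 46 of their 50 neighbours, whose medians were -0.080 and -0.069. FBXW7 (0.086) and MEN1 (-0.076) stood close to the medians of their neighbours, 0.079 and -0.080.

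**Figure D4:**
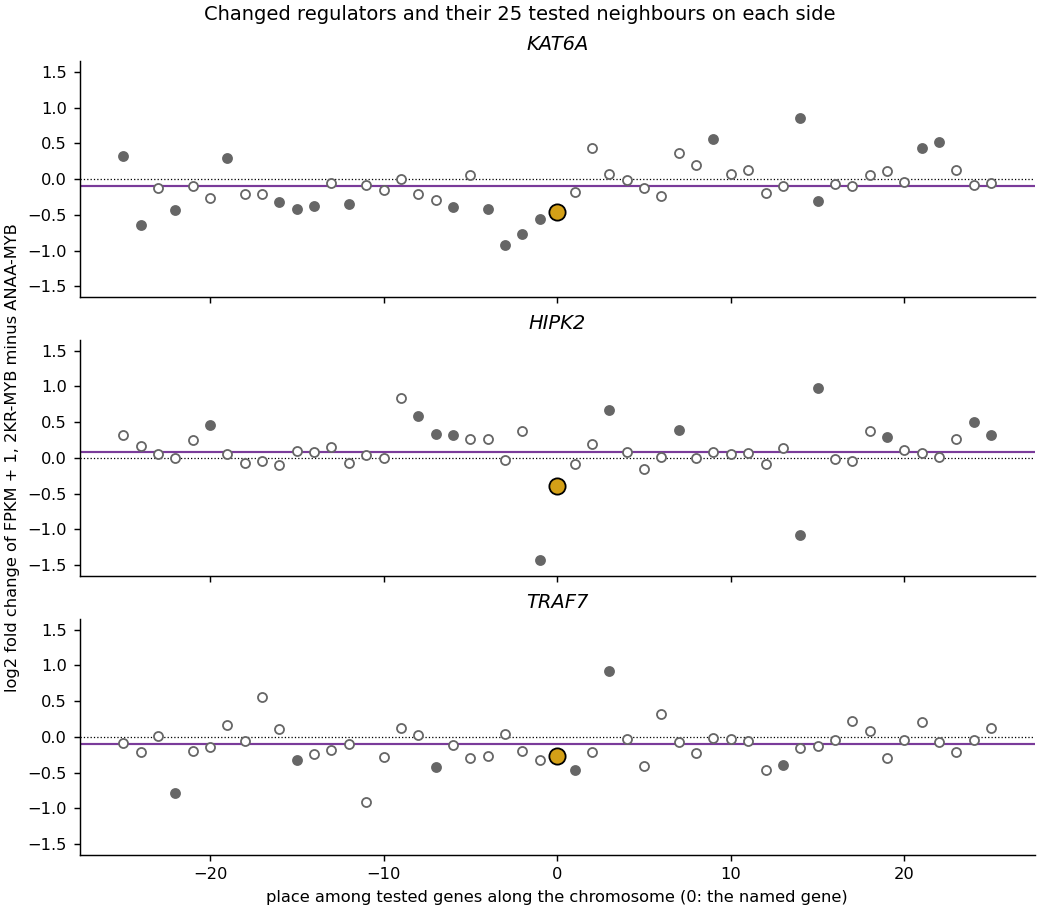
Log2 fold change (2KR-MYB minus ANAA-MYB, on FPKM + 1) of KAT6A, HIPK2 and TRAF7 (yellow, at place 0) and of the 25 tested genes on each side in chromosome order, filled where the limma adjusted p was under 0.01; the purple line is the median of the 50 neighbours. The 3 genes before KAT6A lie below it, while HIPK2 lies under a median of 0.082.

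The 7 lists of partners of the regulators were chosen for known roles, with earlier results of these data known. They held 51 genes besides the regulators. Of the 48 that were tested, 1 was higher with 2KR-MYB and 3 were higher with ANAA-MYB, 8.33% in all against 13.0% of all tested genes, and their median log2 fold change was -0.0087. Among 13 acetyltransferases, KAT6A and KAT2B (PCAF) passed (15.4%, against 13.0% of all tested genes), in opposite directions. KAT2B, a coactivator related to GCN5, had 7.98, 8.12 and 9.01 FPKM with 2KR-MYB and 6.02, 5.96 and 6.27 FPKM with ANAA-MYB, so that its groups lay apart. The difference was 0.40 ± 0.068 on the log2 scale (standard error; limma adjusted p = 0.0040), and it missed the threshold in 8 of 15 alternatives, with the omission of each library in turn (adjusted p from 0.011 to 0.018) and with the replicate block (0.011) among them. Its paralog KAT2A (GCN5) stood at 27.5 to 28.5 FPKM over the 6 libraries, with a log2 fold change of -0.0028.

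Of the subunits that join KAT6A in its complex, BRPF1, BRPF3, BRD1, ING5 and MEAF6, none passed in limma, and their log2 fold changes lay between -0.096 and 0.25. BRPF3 (0.25) and BRD1 (0.22), scaffold and reader subunits, had unadjusted p of 0.0022 and 0.0082 and were higher in all 3 2KR-MYB libraries, the opposite side to KAT6A; an unadjusted p under 0.05 was reached by 39.4% of all tested genes. In the TAK1, HIPK and NLK group 8 of 9 genes were tested and HIPK2 alone passed (12.5%, against 13.0% of all tested genes). TAK1 (MAP3K7), which activates this cascade, had a log2 fold change of 0.051 (95% interval -0.065 to 0.17). None of the 7 genes of the SCF ligase of FBXW7 passed in limma, and 2 of the 7 (28.6%, against 39.4% of all tested genes) had an unadjusted p under 0.05. These were the scaffold CUL1 (log2 fold change 0.26, limma adjusted p = 0.011) and, on the opposite side, the ubiquitin-conjugating enzyme CDC34 (-0.18, limma adjusted p = 0.12). Of the 3 CITED proteins, which bind CBP and p300, CITED2 was the only gene with a mean of at least 1 FPKM, and its libraries overlapped.

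Of the 9 genes of the menin and MLL complex, 2 passed (22.2%, against 13.0% of all tested genes), both lower with 2KR-MYB. These were ASH2L and RBBP5, core subunits that stimulate the methyltransferase. ASH2L had 88.6, 88.5 and 91.2 FPKM with 2KR-MYB and 113, 122 and 127 FPKM with ANAA-MYB, with no overlap. The difference was -0.43 ± 0.053 on the log2 scale (standard error; limma adjusted p = 0.0011). ASH2L lies on chromosome 8 among the 50 neighbours of KAT6A, and its own neighbours had a median of -0.13. Of its 50 neighbours, 11 passed as higher with ANAA-MYB and 3 as higher with 2KR-MYB. RBBP5, at 24.0, 23.6 and 25.4 against 30.5, 29.7 and 31.5 FPKM, was lower by the same measure (-0.32, limma adjusted p = 0.0032). It lost the call without 2KR-MYB replicate 1 or 2 or ANAA-MYB replicate 1 or 3 (limma adjusted p from 0.012 to 0.016). Its neighbours on chromosome 1 had a median of -0.11. Of these 50, 13 passed the threshold as higher with ANAA-MYB and 2 as higher with 2KR-MYB. Over all tested genes 7.42% passed as higher with ANAA-MYB and 5.57% as higher with 2KR-MYB. KMT2A (MLL), the enzyme itself, did not pass (log2 fold change 0.23, limma adjusted p = 0.050). Among 14 other partners of MYB, SKI alone passed (7.14%, against 13.0% of all tested genes). SKI, a corepressor, had 13.86, 13.96 and 14.05 FPKM with 2KR-MYB and 19.0, 20.5 and 18.4 FPKM with ANAA-MYB. The difference for SKI was -0.44 on the log2 scale (limma adjusted p = 0.0011) beside a median of -0.053 for its neighbours. NCOR1 and SIN3A, further corepressor genes, had log2 fold changes of -0.045 and -0.13 and did not pass.

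**Figure D5:**
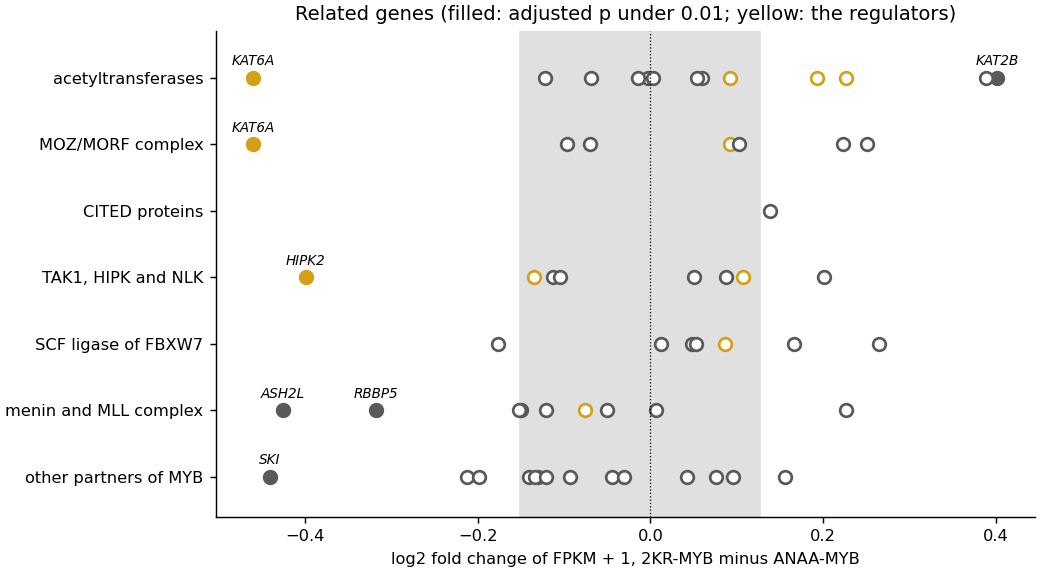
Log2 fold change (2KR-MYB minus ANAA-MYB, on FPKM + 1) of each tested gene in the 7 lists, with the regulators in yellow, filled where the limma adjusted p was under 0.01; the grey band is the 25th to 75th percentile of all tested genes (-0.15 to 0.13). The named points are the genes that passed, and KAT2B (0.40) is the only filled point to the right of 0.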

How the data were processed

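RNA sequencing of 6 K562 libraries was analysed. Stranded poly(A) libraries were sequenced by the authors as 150 bp pairs. The submitters' processing notes name bcl2fastq 2.18.0.12, Trimmomatic 0.36, TopHat2 2.1.1, GRCh38, Cufflinks and Cuffdiff 2.2.1, and the deposited values are FPKM for every gene in each library. Annotation, strand setting and scaling: not given in the sources used here. The 12 other columns of per-sample values were not used. Depth is unknown: at most 3.9% of ratios of values under 0.5 FPKM between libraries fell within 1% of each other, so reads could not be recovered.

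Symbols were matched for 55854 of 58288 gene IDs, and RefSeq positions on GRCh38 for 11541 tested genes. The test, on log2(FPKM + 1) for genes averaging 1 FPKM or more, was limma 3.58.1 (R 4.3.3; trended empirical Bayes), checked on simulated data; this scale understates changes of low genes. Figures were drawn with matplotlib 3.10.9.

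The members and lists were chosen with earlier results of these data known. The genes named are the 10 regulators, MYB and, of each list, at most 3 further genes past the threshold; others, named for comparison, were chosen after their values were seen. The values of some single genes of the lists are not reported here. Equal replicate numbers were not taken as pairs in the main fit. Alternatives were pseudocounts of 0.1 and 0.01, upper quartile or quantile normalization, no filter or a minimum mean of 5 FPKM, a robust prior, the replicate block, each library left out, a threshold of 0.05 and correction for transcript GC content (loess, span 0.3).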

Additional observations from a re-analysis of the deposited data

How the results depend on the processing

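Over 15 alternatives to the fit, KAT6A (adjusted p from limma, 0.00031 to 0.0038), ASH2L and SKI passed in all 15, HIPK2 in 13 (0.0017 to 0.011), RBBP5 in 11, KAT2B in 7 and TRAF7 in 4 (0.0057 to 0.026). HIPK2 missed the threshold with no filter (0.010) and without the first 2KR-MYB library (0.011). TRAF7 missed it with no filter (0.0205), after upper quartile scaling (0.017), quantile normalization (0.0195) and GC correction (0.026). It also missed the threshold with the replicate block (0.013) and with each of the 6 libraries left out in turn. The log2 fold change of TRAF7 was -0.27 in the main fit. It was -0.23 after upper quartile scaling, -0.22 after quantile normalization and -0.18 after GC correction. Some of these fits held fewer libraries or more genes, and the cause of the lost calls was not tested. The log2 fold change of MEN1 lay between -0.13 and 0.015 with each library left out, the latter without the third 2KR-MYB library, and of the 14 genes refitted (the regulators, KAT2B, ASH2L, RBBP5 and SKI) no other changed direction. With no filter 1 regulator passed and 942 genes in all. At a threshold of 0.05 the numbers were 3402 of all tested genes (26.9%) and 10 of the related genes. Calls were also gained at the threshold of 0.01. The SCF ligase list of FBXW7 went from 0 calls to 1 with a minimum mean of 5 FPKM, with the robust prior and without ANAA-MYB replicate 3. It also held 1 call after upper quartile scaling, quantile normalization and GC correction, where the list of the KAT6A complex went from 1 to 2. With 1 library left out, between 852 and 1204 genes passed, of them 1 to 2 regulators and 2 to 3 related genes, with 1 regulator (KAT6A) without the first 2KR-MYB library. With the replicate block 1089 genes passed and 2 regulators, and KAT2B (0.011) also lost its call. Deviations of libraries with the same number correlated at -0.052, -0.035 and -0.0026 over tested genes. No pairing was thus seen over all tested genes, and whether such libraries shared a culture or batch was not tested. The ratios within a library differed by -0.63 to -0.56 (KAT6A/KAT6B), 0.47 to 0.57 (HIPK1/HIPK2) and -0.099 to 0.024 (CREBBP/EP300) with each library left out. Depth is unknown, and 3 libraries a group limit the precision.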
